A study of Caenorhabditis elegans with 2 samples.

Results

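The genes described here encode the RNA polymerases of *Caenorhabditis elegans*, their general transcription factors, the TAF subunits of TFIID and the Mediator complex. They were chosen by symbol, as every protein-coding gene of the WBcel235 annotation whose name starts with rpb-, rpc-, rpoa-, rpac-, taf-, mdt- or gtf-, which gave 68 of 19973 protein-coding genes on the nuclear chromosomes. The rule reads gene symbols and no peak value, although the set was proposed with earlier results of these data known. Chromatin came from whole larvae at the L2 stage, of mixed sex, of strain OP355, which is unc-119(tm4063) III and carries the integrated transgene wgIs355 with an eGFP-tagged factor, and 2 biological replicates of this 1 group were sequenced. There is no second genotype, stage or treatment, and the whole animals pool all tissues, so a peak cannot be assigned to a cell type. The labels name the tagged factor both as mdl-1 and as ZK337.2 (klu-1 in the annotation). The promoter window of mdl-1, a Mad-like basic helix-loop-helix gene, held the strongest peak of every list (rank 1 in replicate 1, in replicate 2 and in the pooled set). In the klu-1 window the strongest peak ranked 27570 in replicate 1 and 10905 in replicate 2. Which factor carried the tag was not tested, and these ranks do not settle it.

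RNA polymerase II transcribes protein-coding genes, RNA polymerase I the large ribosomal RNAs, and RNA polymerase III tRNAs and other short RNAs. At Pol II promoters TFIID, built from the TATA-binding protein and the TAFs, recognises the core promoter. The TFIIA, TFIIE, TFIIF and TFIIH factors then join the polymerase, and Mediator links it to activators and repressors. Mad family proteins pair with Max-like partners and bind the E-box CACGTG. Many worm transcripts are trans-spliced and many worm genes lie in operons, so an annotated start can lie downstream of the place where transcription begins.

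A gene is called bound when its promoter window holds the summit of a peak in the authors' optimal set by irreproducible discovery rate (IDR). The window begins 1000 bp before any annotated transcript start of the gene and ends 200 bp after it. Of the 68 genes, 7 were bound, namely taf-10, taf-12, taf-4, mdt-19, mdt-26, mdt-6 and rpb-11. The sequences around 5 of these summits are shown because they are the called binding regions of the group. They come from the RefSeq WBcel235 genome (ce11 coordinates), 50 bp to either side of the summit, on the strand of the gene, with any annotated UTR or coding base left off. Capitals mark matches, on either strand, to the short motifs that are spelled out after the sequences.
taf-10 (chrV:4686859-4686959, plus strand): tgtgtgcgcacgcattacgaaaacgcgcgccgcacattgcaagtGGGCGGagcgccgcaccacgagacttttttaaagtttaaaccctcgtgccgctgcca
mdt-19 (chrIII:2597200-2597300, plus strand): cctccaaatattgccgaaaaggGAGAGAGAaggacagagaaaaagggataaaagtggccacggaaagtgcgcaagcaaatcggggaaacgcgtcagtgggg
taf-12 (chrIII:11870122-11870222, minus strand): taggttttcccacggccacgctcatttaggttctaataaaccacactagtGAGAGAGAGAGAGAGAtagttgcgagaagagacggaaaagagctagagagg
mdt-26 (chrII:5661122-5661180, plus strand): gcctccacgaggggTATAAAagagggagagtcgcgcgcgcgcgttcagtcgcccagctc
rpb-11 (chrII:14059926-14060026, plus strand): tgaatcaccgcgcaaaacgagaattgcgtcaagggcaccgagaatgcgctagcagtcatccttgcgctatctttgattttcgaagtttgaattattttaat

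CACGTG was absent from all 7 summit windows, and from every base of the 7 peaks. Of the 1102 IDR peaks in any promoter window, 16% held CACGTG within 50 bp of the summit, and with 0 of 7 peaks the exact 95% binomial interval reaches 41%. The variant CACATG had 2 matches at the mdt-6 summit and at none of the other 6, beside 9.26% of all IDR promoter peaks. GAGA repeats lay at taf-12, with 6 overlapping matches to GAGAGA, and at mdt-19, with 2, beside 29.8% of IDR promoter peaks with at least 1 match. GGGCGG lay at taf-10 (5.63% of IDR promoter peaks). The TATA sequence TATAAA, added to the search after these sequences were seen, lay at mdt-26 and taf-4 (4.63%). CTGCGTCT lay at none of the 7 and at 12.9% of IDR promoter peaks. The 7 summit windows ranged from 42.6% to 64.4% G or C, with a median of 51.5%, and the median over IDR promoter peaks was 48.5%.

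The bound share was 10.3% of the 68 genes (exact 95% binomial interval 4.24 to 20.1), against 6.55% of all protein-coding genes, a background value that lies inside the interval. The intervals cover counting error over genes only, and the depth of the libraries is unknown. The 500 strongest IDR peaks reached 1 of the 68 genes, taf-10, and 1.6% of all genes. In each replicate the 2103 highest-signal peaks, as many as the IDR set holds, form a top list. The top list of replicate 1 reached 11 of the 68 genes (16.2%, interval 8.36 to 27.1, background 6.36%), and that of replicate 2 reached 7 (10.3%, interval 4.24 to 20.1, background 6.46%). IDR peaks that overlap a peak in both top lists reached 6 (8.82%, background 4.57%).

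Weak peaks were more widespread. The relaxed lists, which by their labels include background and served as input to the IDR step, have 28651 entries for the pool and 30000 for each replicate. At least 1 pooled relaxed summit lay in the windows of 39 of the 68 genes (57.4%, exact 95% binomial interval 44.8 to 69.3, background 41.9%). In replicate 1 the number was 42 (61.8%, interval 49.2 to 73.3, background 42.2%), and in replicate 2 it was also 42 (background 42.7%). Pooled summits with a −log10 q-value of at least 2 lay in 16 windows (23.5%, interval 14.1 to 35.4, background 13.3%). A single annotated start was given for 70.6% of the 68 genes and for 72.6% of all genes. The length of sequence searched also depends on the number and spacing of starts at the other genes, and it was not compared.

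**Figure D1:**
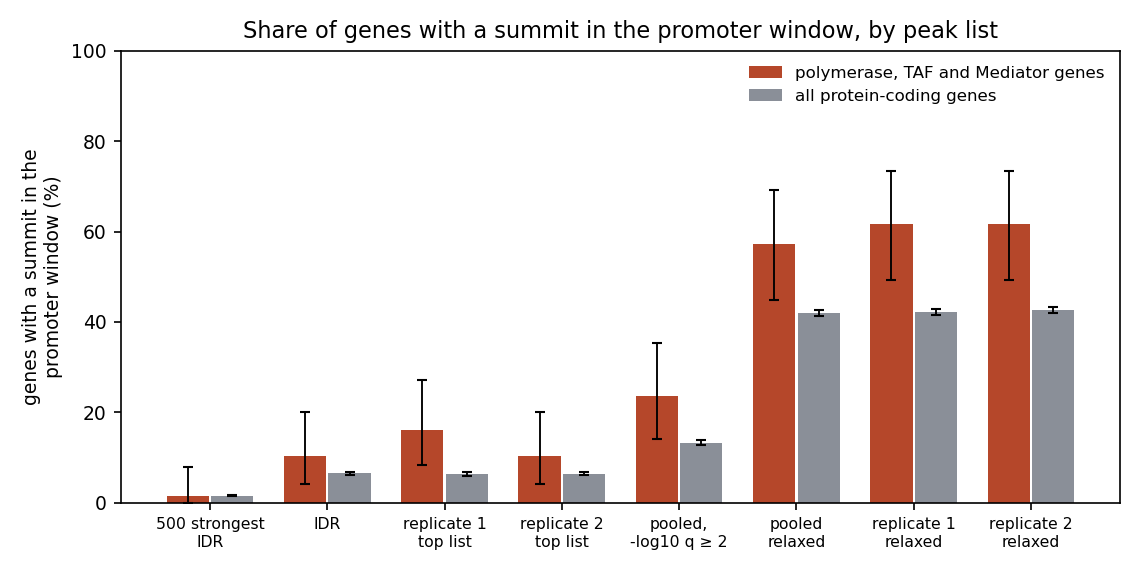
Share of genes (%) with a summit in the promoter window in each of 8 peak lists, for the 68 polymerase, TAF and Mediator genes (red) and all 19973 protein-coding genes (grey), with exact 95% binomial intervals. In the IDR set the values are 10.3% and 6.55%, and in the pooled relaxed list 57.4% and 41.9%.

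By family, 3 of 17 TAF genes, 3 of 20 Mediator genes and 1 of 11 rpb- genes were bound, where the share over all protein-coding genes was 6.55%. None of the 4 rpc-, 4 rpoa-, 2 rpac- or 10 gtf- genes was bound, a count near that background for families of this size. The families were not tested against each other. The strongest pooled peak in the window had a median signal of 25 over the 9 Mediator genes with one, 20.8 over 10 TAF genes, 11.2 over 7 rpb- genes and 9.63 over 8 gtf- genes. Over all 39 members with a pooled peak the median was 15.9, and over all protein-coding genes with one it was 12. Signal is the authors' own value per peak, and its scaling is not stated, so it is compared within a list only.

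**Figure D2:**
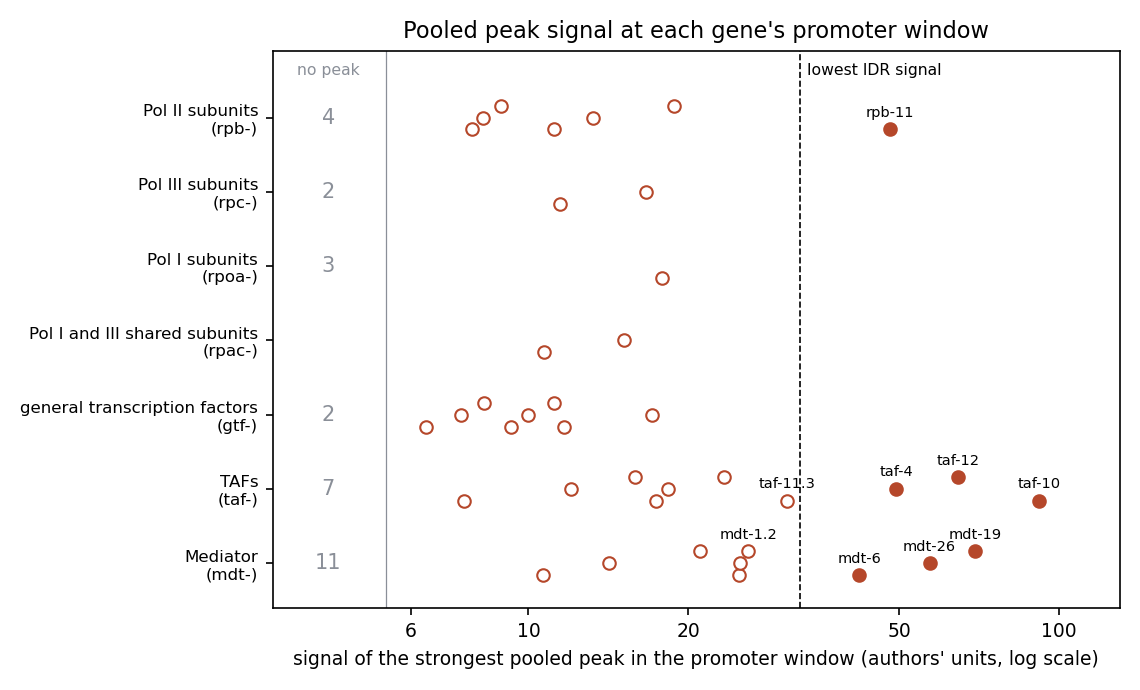
Signal of the strongest pooled peak in the promoter window (authors' units, log axis) of each gene, by family. Filled points are bound genes, the dashed line is the lowest IDR signal (32.5), and numbers at the left count genes with no pooled peak in the window. All filled points lie in the rpb-, TAF and Mediator rows.

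Among the TAF genes, taf-10 (WBGene00006392, chromosome V, 4687103 to 4687899, plus strand) had the strongest peak of the group. Its product is a histone-fold subunit of TFIID that in yeast and humans is also part of the SAGA coactivator. The peak signal was 45.9 in replicate 1 and 43.7 in replicate 2, and 91.7 in the IDR list, where it ranked 422 of 2103. The summit lay 194 bp upstream of the start in an intergenic stretch, in the window of no other gene, in a peak of 127 bp. Both replicates put the summit at nearly the same base, 194 and 198 bp upstream.

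The gene taf-12 (WBGene00006396, chromosome III, 11862385 to 11869281, minus strand) encodes the TAF that in yeast and humans pairs with TAF4 through a histone fold. Its peak had a signal of 31 in replicate 1, 33.2 in replicate 2 and 64.5 in the IDR list (rank 741). At 891 bp before the start, the summit was near the outer edge of the window, yet no other protein-coding start was closer. The partner gene, taf-4 (WBGene00006385, chromosome I, 382826 to 388564, plus strand), had a signal of 15.4 in replicate 1, 34.7 in replicate 2 and 49.3 in the IDR list (rank 1133). In worms its product is known to be required broadly for embryonic transcription. The taf-4 summit lay 285 bp upstream of its start, and it also fell in the window of pqn-59, 639 bp upstream of that start.

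Among the Mediator genes, mdt-19 (WBGene00007019, chromosome III, 2598053 to 2603212, plus strand) had the strongest peak, with a signal of 17.8 in replicate 1, 47.3 in replicate 2 and 69.4 in the IDR list (rank 662). Its summit lay 803 bp upstream of the mdt-19 start and only 216 bp upstream of the start of apb-1, an adaptin gene, so the nearer gene is apb-1. The gene mdt-26 (WBGene00016115, chromosome II, 5661181 to 5665243, plus strand) encodes the Mediator subunit that in human cells contacts elongation factors. RefSeq names the worm product only by its TFIIS N-terminal domain. The gene had a signal of 25.7 in replicate 1, 42.4 in replicate 2 and 57 in the IDR list (rank 911). Its summit lay 9 bp upstream of the start, the closest of the 7, and 386 bp upstream of the start of ift-43, an intraflagellar transport gene.

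The gene mdt-6 (WBGene00003164, chromosome V, 7058547 to 7059624, minus strand) encodes a subunit of the Mediator head. Its peak was the weakest of the 7, with a signal of 11.6 in replicate 1, 28.5 in replicate 2 and 42 in the IDR list (rank 1449). The summit lay 921 bp upstream of the mdt-6 start but 7 bp upstream of a start of Y57E12AL.1, inside the annotated span of that gene, and 75 bp upstream of a start of Y57E12AL.6. On the same strand as mdt-6, Y57E12AL.6 ends 38 bp before it. The peak is therefore nearest to another gene, as at mdt-19, while the other 5 bound genes had the start nearest to their own summit. In all protein-coding genes called bound, 78.3% had the nearest start.

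The only bound polymerase gene was rpb-11 (WBGene00012187, chromosome II, 14060085 to 14060624, plus strand), whose product pairs with RPB3 in the core on which Pol II assembles. Its peak had a signal of 20.6 in replicate 1, 26.8 in replicate 2 and 47.9 in the IDR list (rank 1190). The summit lay 109 bp upstream of the start, and also 763 bp upstream of the start of W01G7.4. Of the 7 bound genes, 5 thus shared their peak with at least 1 other promoter window, and 41.9% of all bound genes did.

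The IDR set is made of the 2103 strongest pooled peaks, so its peaks rank high in the pool by construction. All 7 bound genes had a top-list peak in replicate 2, and 6 of them had one in replicate 1, the exception being mdt-6, at rank 2607. Signals are not compared between lists, so ranks are given, replicate 1 first. Replicate 1 gave the higher place at taf-10 (277 and 685), taf-12 (542 and 1042) and rpb-11 (1068 and 1465). Replicate 2 gave it at taf-4 (1686 and 976), mdt-19 (1362 and 597), mdt-6 (2607 and 1336) and mdt-26 (734 and 709). Replicate 1 called 5 further genes in its top list that neither the IDR set nor replicate 2 called. The share of all protein-coding genes called in this way was not computed. Over all protein-coding genes, the top list of replicate 1 reached 6.36%, and IDR peaks that overlap both top lists reached 4.57%. Both values describe other sets and do not give the share called in replicate 1 only. The 5 genes are therefore not read as few or many. The gene mdt-22, for a Mediator head subunit, had a signal of 17.7 (rank 1381) in replicate 1 and 7.89 (rank 12021) in replicate 2. The gene mdt-1.2, for a paralog of the Mediator subunit that contacts nuclear receptors in mammals, had 17.2 (rank 1431) and 8.65 (rank 9937). For taf-11.3 the values were 16.6 (rank 1510) in replicate 1 and 13.6 (rank 4113) in replicate 2, and for mdt-18 they were 14.2 (rank 1910) and 13 (rank 4456). At each of these 4 genes the peak entered the top list of replicate 1 only. The remaining gene, rpc-1, for the largest Pol III subunit, had a signal of 22.1 (rank 961) in replicate 1 from a summit 988 bp upstream. Inside the window, its strongest summit in replicate 2 lay 145 bp upstream with a signal of 13.3 (rank 4265).

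Across the 32 genes with a relaxed peak in both replicates, the signals of their strongest peaks had a Spearman correlation of 0.61, and across 5286 protein-coding genes with both it was 0.66. These are descriptions across genes of the same 2 libraries. At some genes, such as rpc-1, the strongest summit inside the window was a different one in each replicate. The rpc-1 summit of replicate 1, 988 bp upstream, lay near the outer edge of the window. An IDR summit lay just outside that edge, 1023 bp upstream. Whether replicate 2 had a stronger peak beyond the edge was not examined.

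**Figure D3:**
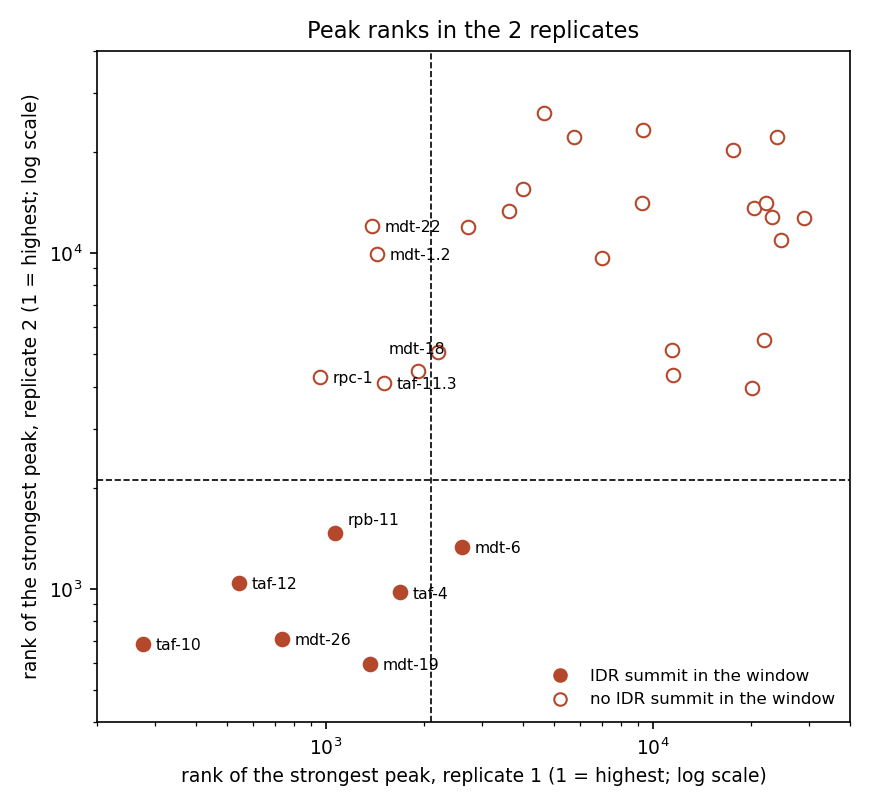
Rank of the strongest relaxed peak in the promoter window in replicate 1 (x) and replicate 2 (y), on log axes, for the 32 genes with one in both. Dashed lines mark rank 2103, the end of each top list. The 7 filled, bound genes lie below the horizontal line, and mdt-6 alone of them lies right of the vertical one.

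Both limits of the call cut close to some members. By signal, mdt-6 was the weakest bound gene (42 in the IDR list), the lowest IDR signal was 32.5, and the strongest unbound gene was taf-11.3, one of the worm genes for TFIID subunit 11, with a pooled signal of 30.7 (rank 2266) at 138 bp upstream. It was followed by mdt-1.2 (25.9), mdt-18 (25), mdt-22 (25), taf-3 (23.4) and mdt-9 (21). By distance, mdt-6 was the farthest inside the window at 921 bp and rpc-1 the closest outside it upstream, with an IDR summit 1023 bp upstream of its start (signal 45.1, rank 1315). That peak was nearest to the start of C42D4.18.

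In all, 7 unbound members had an IDR summit within 2000 bp of a start. Besides rpc-1 they included rpoa-1, for the largest Pol I subunit (1305 bp upstream, signal 37), and rpac-19, for a subunit that Pol I and Pol III share (1580 bp upstream, signal 74.1, nearest to ubc-7). They also included mdt-8 (1210 bp upstream, signal 57.9), taf-3 (1488 bp upstream, signal 52.9), taf-11.3 (1818 bp upstream, signal 36.9) and mdt-27, where the summit lay 880 bp downstream of the start with a signal of 40.4. With these the number rises to 14 of 68, beside 10% of all protein-coding genes with an IDR summit at most 2000 bp from a start on either side.

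**Figure D4:**
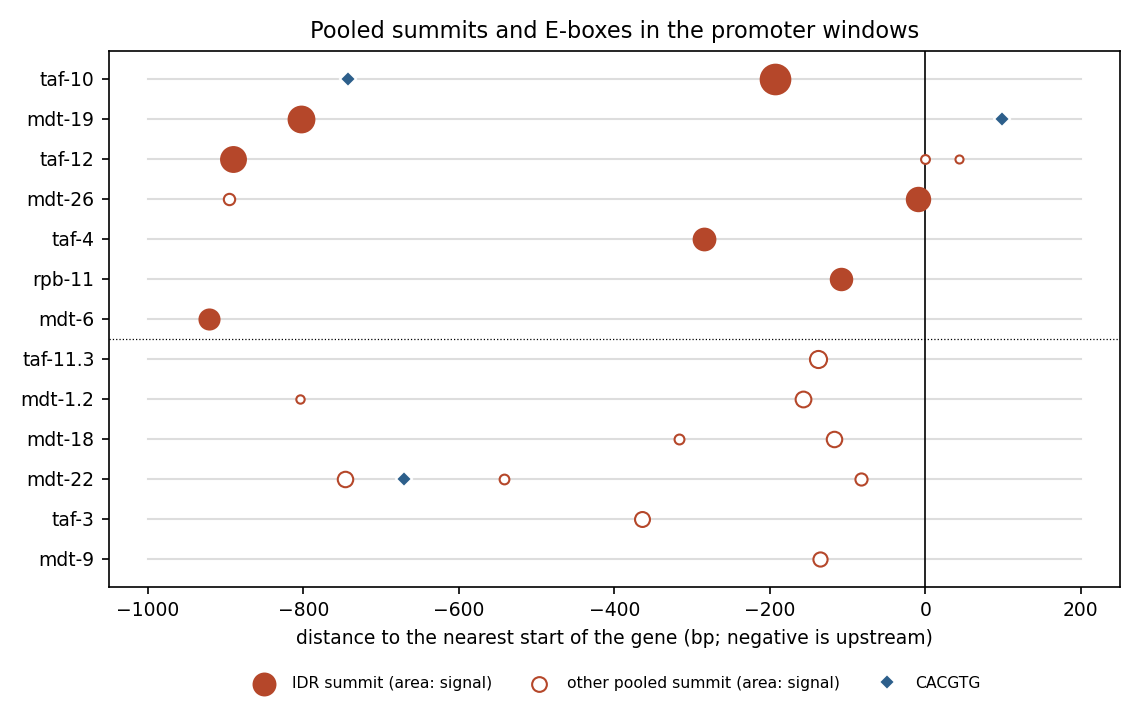
Pooled summits in the promoter windows of the 7 bound genes (above the dotted line, by signal) and of the 6 unbound genes with the strongest pooled peak. The x axis is the distance in bp to the nearest start of the gene, circle area follows the signal, filled circles are IDR summits and diamonds are CACGTG sites. Summits at taf-12, mdt-6 and mdt-19 lie 803 to 921 bp upstream, and that at mdt-26 lies 9 bp upstream.

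CACGTG occurred in the promoter windows of 14 of the 68 genes (20.6%), against 21.5% of all protein-coding genes. Of the 14, taf-10 and mdt-19 were bound (14.3%, exact 95% binomial interval 1.78 to 42.8), and 11.3% of all genes with the sequence in the window were. In neither was the sequence near the summit, since it lay 550 bp from the pooled summit at taf-10 and 901 bp at mdt-19. No CACGTG of the 15 in these windows was within 50 bp of a pooled summit. The closest was at mdt-22, 671 bp upstream of the start, which lay 74 bp from the pooled summit and 42 bp from the summit in replicate 1. The 3 sites are shown with 10 bases to either side, on the strand of the gene, with the E-box in capitals.
mdt-22 (chrII:10300542-10300547): tgacaaattaCACGTGacgtcagcca
taf-10 (chrV:4686357-4686362): tttgaaaattCACGTGaaattgacca
mdt-19 (chrIII:2598149-2598154): gctctacttcCACGTGagtttcttca

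Among the 57 pooled relaxed peaks with a summit in any of the 68 windows, 0 held CACGTG within 50 bp of the summit (exact 95% binomial upper bound 6.27%), against 4.67% of 9648 such peaks at all promoters. GAGAGA lay at 12.3% of the 57 and 12.7% of the 9648, and TATAAA at 15.8% and 10.9%. CTGCGTCT lay at 5.26% of the 57 and 3.92% of the 9648.

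The strongest pooled summit lay upstream and close to the start at most members with one. Its median position was 172 bp upstream over the 39 genes, beside 273 bp upstream over all protein-coding genes with a pooled peak. Of the 39 summits, 28 lay within 300 bp of a start. The share within 300 bp over all protein-coding genes was not computed, and their median also lies within that distance. The count of 28 is therefore not read as particular to these genes. Among the genes for the subunits shared by all 3 polymerases, rpb-10 had a pooled signal of 18.8 at 198 bp upstream and rpb-12 13.2 at 306 bp upstream. The rpb-6 window held 7.83 at 172 bp upstream. Neither rpb-5 nor rpb-8 had a pooled summit in the window. The gene for the second-largest Pol II subunit, rpb-2, had no summit in any of the relaxed lists, and the same held for its counterparts rpc-2 of Pol III and rpoa-2 of Pol I. These genes were named after their values were seen, and the share of all protein-coding genes without any such summit was not computed. The next gene upstream on the same strand ended 113 bp from rpb-2, 46 bp from rpc-2 and 3142 bp from rpoa-2.

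Of the 10 general transcription factor genes, 8 had a pooled relaxed summit (background 41.9%), and gtf-2E2 and gtf-2H1 had none. The median signal of the 8 was 9.63, beside 12 over all protein-coding genes with a pooled summit. Their signals ran from 6.41 at gtf-2F2 to 17.1 at gtf-2A2, below the lowest IDR signal. For gtf-2A2, a TFIIA subunit gene, the signal was 3.4 (rank 20048) in replicate 1 and 13.9 (rank 3974) in replicate 2. Of the 5 gtf-2H genes, for subunits of TFIIH, a complex that acts in DNA opening and repair, gtf-2H2C had the highest pooled signal, 11.7 at 109 bp downstream of the start.

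Close neighbours on the same strand were common in the group, a split looked at after the lists of bound genes were known. A protein-coding gene on the same strand ended under 500 bp upstream of, or overlapped, 32 of the 68 genes (47.1%), against 20.8% of all protein-coding genes. Operons are not marked in the annotation used, and a short gap is not an operon call. Of the 32 genes with such a neighbour, 1 was bound, mdt-6 (3.12%, exact 95% binomial interval 0.0791 to 16.2, background 3.6%). Of the 36 without one, 6 were bound (16.7%, interval 6.37 to 32.8, background 7.32%). Pooled relaxed summits lay in the windows of 11 of the 32 (34.4%, interval 18.6 to 53.2, background 38.3%) and of 28 of the 36 (77.8%, interval 60.8 to 89.9, background 42.8%). Mediator genes made up 13 of the 32, among them mdt-10, mdt-11, mdt-17 and mdt-31, and rpb- genes 4.

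**Figure D5:**
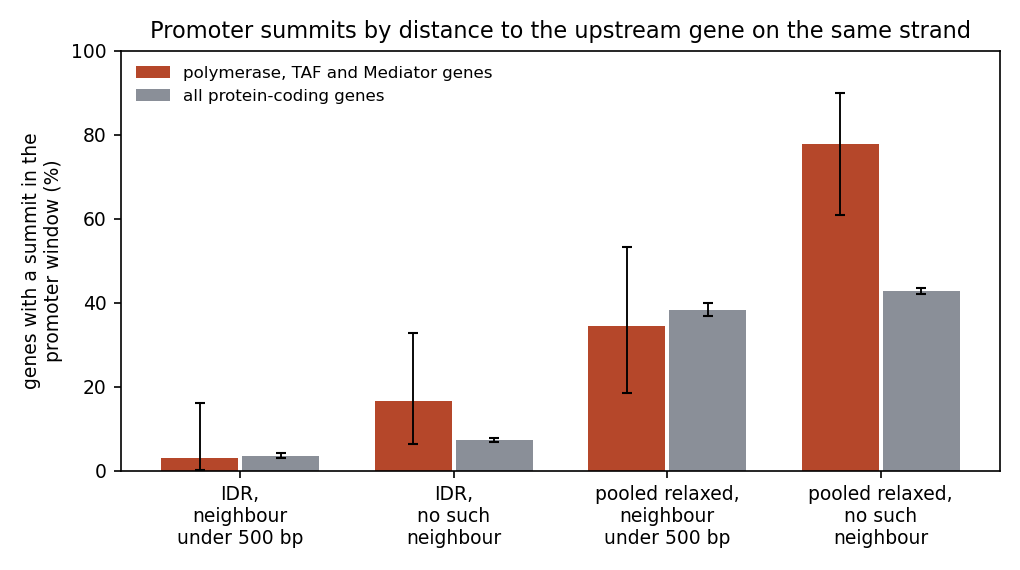
Share of genes (%) with a summit in the promoter window, for the IDR set and the pooled relaxed list, split by whether a protein-coding gene on the same strand ends under 500 bp upstream. Red is the 68 polymerase, TAF and Mediator genes and grey all protein-coding genes in the same class, with exact 95% binomial intervals. The highest red bar is 77.8%, beside a grey bar of 42.8%.

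Other genes of the transcription machinery carry names outside the chosen prefixes. Of 59 symbols listed, 55 matched the annotation, and 3 of the 55 were bound, a count near the background of 6.55% of all protein-coding genes. Of the 10 genes for Pol II, TBP, TFIIB, TFIIIB and TFIIH proteins, cdk-7, the kinase of TFIIH, was bound, with a signal of 26.5 in replicate 1, 58.3 in replicate 2 and 85.9 in the IDR list at 55 bp upstream. Of 18 snRNA activating complex and Integrator genes, ints-4 was bound, with 37.8 in replicate 1, 100.2 in replicate 2 and 139 in the IDR list at 30 bp downstream. Of 18 elongation factor genes, pafo-1 of the PAF complex was bound, with 20.1, 36.4 and 58.9 at 65 bp upstream. None of the 9 Mediator genes with other names, such as let-19, dpy-22, cdk-8 and sur-2, was bound. Pooled relaxed summits lay in the windows of 33 of the 55, against 41.9% of all protein-coding genes. None of the 3 bound genes had CACGTG within 50 bp of the summit.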

How the data were processed

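ChIP-seq was run on L2 larvae; the labels give a fragment size range of 150 to 350 bp. The authors deposited 8 peak lists, and the 4 in ce11 were used here: the IDR set, the pooled relaxed list and 1 relaxed list per replicate. The deposited signal value and −log10 q-value of each peak are the authors', whereas their scaling and the aligner, caller, control treatment, read depth and IDR threshold were not given in the sources used here. Because the ce10 lists need another annotation, they were not used. All 2103 IDR peaks are identical to pooled peaks.

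Genes and starts came from Ensembl release 115 (WBcel235), products and genome sequence from RefSeq. A summit is column 2 plus column 10 of the file. The strongest peak in a window stands for a gene. Shares have exact 95% binomial intervals, and no test was run, since there is 1 group. The rule for the members uses symbols only, but the members and lists were chosen with earlier results of these data known. Text names all bound members, the 6 strongest unbound ones, members in a replicate's top list, neighbours nearest to a member's peak and bound genes of the other lists. Further members, and neighbours sharing a peak, were named after their values were seen. RefSeq does not name mdt-9, mdt-26, mdt-28 and mdt-30 as Mediator, and it names the mdt-9 product as guanine nucleotide exchange factor MSS4. The counts of Mediator genes go by symbol and include these 4, and the median Mediator signal includes mdt-9, mdt-26 and mdt-28. Window assignment and motif search were tested on simulated data. Intervals came from scipy 1.17.1, tables from pandas 2.3.3 with numpy 2.4.6, and plots from matplotlib 3.10.9, under Python 3.11.15.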

Additional observations from a re-analysis of the deposited data

How the results depend on the processing

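The 7 bound genes became 1 with the 500 strongest IDR peaks, 16 with pooled peaks of −log10 q-value at least 2, 4 with the window cut to 500 bp before and 100 bp after a start, and 13 when it began 2000 bp before. The background moved too, to 1.6%, 13.3%, 5.02% and 8.82% of all genes. Leaving out each replicate gave 7 to 11, and 11 came from replicate 1 alone. Nearest starts only gave 5 (background 5.15%), IDR peaks in both top lists 6 (4.57%), any overlap 8 (7.11%), and outermost starts 7 (5.86%). Without the 4 mdt- genes that RefSeq does not name as Mediator, a setting chosen after seeing the data, 6 were bound. The count of bound genes with CACGTG at the summit was 0. It was 1 when the E-box variant CACATG was counted too (mdt-6) and 0 to 1 with 1 replicate left out, the 1 being mdt-22 in replicate 1. The other machinery lists had 3 bound genes, 13 with pooled peaks of −log10 q-value at least 2, and 3 to 4 with 1 replicate left out. The 1 bound gene with a close neighbour stayed 1 with gaps under 200 or 1000 bp, settings chosen after seeing the data, and was 0 in replicate 1 alone. No paired analysis was possible because the replicates form 1 group. Depth is unknown, so a gene without a peak may lie below detection.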

Other observations

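No relaxed list held a summit in the windows of 15 of the 68 genes. The matching share over all protein-coding genes was not computed. Taken singly, the relaxed lists held a summit for 41.9% (pool), 42.2% (replicate 1) and 42.7% (replicate 2) of all protein-coding genes. These shares each concern a single list and do not give the share of genes without a summit in every list. The 15 genes are therefore not read as few or many. The 15 genes were rpb-2 and rpb-9 of Pol II, rpc-2 of Pol III, rpoa-2, rpoa-12 and rpoa-49 of Pol I, taf-2 and taf-8, and the Mediator genes mdt-8, mdt-10, mdt-11, mdt-20, mdt-27, mdt-30 and mdt-31. The median distance from a start to the nearest IDR summit was 11543.5 bp over the 68 genes and 22020 bp over all protein-coding genes. By chromosome, 18 of the 68 genes lie on III, 15 on II, 11 on I, 10 each on IV and V, and 4 on X. The matching counts over all protein-coding genes are not given here, nor are the distances by chromosome.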
